A study of Homo sapiens with 10 samples.

Results

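The effect of removing ZNF274 was compared between human HEK293T cells and NPCs, as the difference of the knockout (KO) effects, KO against WT in NPCs minus KO against WT in HEK293T cells. This difference is called the interaction here. All 10 libraries of the series entered it. Of 19665 gene identifiers listed for both cell types, 19255 were tested, and the 18605 that carry no zinc finger gene symbol are described here. HEK293T is a line derived from human embryonic kidney, represented by 3 WT libraries (S15, S16, S17) and 3 ZNF274 KO libraries (S18, S19, S20). NPCs are neural progenitor cultures differentiated from H1 embryonic stem cells, represented by 2 WT libraries (S3, S5) and 2 ZNF274 KO libraries (S1, S2). The KO was a CRISPR deletion made with a pair of guides in clones grown from single cells, and the design text gives the replicates as independent clones. Cell type is joined to everything else that differs between the cultures, including the cell of origin and the differentiation, so a difference between cell types cannot be told apart from these.

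ZNF274 encodes a protein with a KRAB domain, a SCAN domain and C2H2 zinc fingers. KRAB zinc finger proteins are known for bringing the corepressor TRIM28 and H3K9 methyltransferases to the DNA they bind, so that the site becomes repressive chromatin. Clustered protocadherins (PCDHs) let neurites of a neuron recognise each other at the cell surface. Each variable exon of their clusters has its own promoter, and a neuron uses a few of them. Neural progenitors are the dividing cells of the early neural tube, known by factors such as SOX2 and PAX6, while mesenchymal and neural crest derived cells are known by fibrillar collagens and by factors such as TWIST1 and PAX3.

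The libraries held 18609597 to 32222111 counts on the shared genes, at least 99.7% of the counts in each. Spearman correlations between libraries of 1 group were 0.978 to 0.989 across genes. In a principal component analysis of log CPM, the first component separated the cell types, the second separated WT from KO NPCs, and the third set KO HEK293T library S18 (score -57.4) apart from the other KO HEK293T libraries (1.16 and 4.06). The fourth component set the WT NPC libraries S3 and S5 apart from each other (scores 33.9 and -34.3). Levels are CPM, read counts relative to library size, scaled by TMM, a factor that makes most genes level between libraries, and 3 counts, the floor used here, equal 0.0917 to 0.154 CPM. Where a group had 3 counts or fewer in each library, the fold change (FC) is given as a lower bound. It compares the mean of the other group with the floor. Calls required an adjusted p below 0.05 (edgeR's quasi-likelihood test, Benjamini-Hochberg adjustment over all 19255 genes) and an FC above 2. Reads carry no molecular identifiers, so the floor covers counting error alone.

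ZNF274 itself had 445, 423 and 492 counts in the WT HEK293T libraries and 491 and 496 in the WT NPC libraries. None of the 5 KO libraries had a count, which is at least 138-fold lower in HEK293T cells and at least 170-fold lower in NPCs.

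The labelled cell types were checked against their markers. In WT NPCs, the progenitor factor SOX2 was at 224 ± 6.02 CPM (SD, n = 2), the intermediate filament gene NES at 2639 ± 514 CPM and PAX6, of the forebrain and eye, at 83.5 ± 6.88 CPM. In the KO NPC libraries, SOX2 was at 17.2 CPM, the radial glia lipid carrier FABP7 at 2.80 CPM against 285 CPM in WT, and NES at 3179 CPM. The summed level of 16 neural progenitor genes was 3252 to 4275 CPM in WT and 3450 to 3501 CPM in KO NPCs, with NES as its largest member. The kidney factors PAX2 and PAX8 had means of at most 0.570 CPM in both groups of HEK293T cells. The libraries are bulk RNA, so fewer cells of a type and less RNA per cell cannot be told apart.

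For genes outside the zinc finger symbols, the KO effect was far more widespread in NPCs than in HEK293T cells. In HEK293T cells 30 genes were higher and 2 lower in KO, where 0.556% and 0.0156% of all genes tested were called in those directions. In NPCs 1638 were higher and 1637 lower, against 8.76% and 8.66% of all genes. At an unadjusted p below 0.05 there were 1285 genes in HEK293T cells and 7097 in NPCs, so fewer genes passed in HEK293T cells although that comparison had more libraries. The fitted spread between replicates (biological coefficient of variation) was 0.226 in HEK293T cells and 0.192 in NPCs.

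The interaction itself, tested over all 10 libraries, was called higher for 1140 genes and lower for 1105, where 6.01% and 6.22% of all genes tested were called. Of the 1140, 954 were called higher in NPCs, 184 were called in neither cell type and 2 were called lower in HEK293T cells. Of the 1105, 944 were called lower in NPCs, 147 were called in neither, 7 were called higher in HEK293T cells alone, 5 were called in opposite directions and 2 rose in both but more in HEK293T cells. The log2 FC in HEK293T cells lay within 0.5 of 0 for 936 of the 1140 and 747 of the 1105. Their median log2 FC was -0.13 in HEK293T cells and 1.68 in NPCs for the first set, and 0.25 and -1.92 for the second.

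Many of these genes were expressed in both cell types. Taking a mean of at least 1 CPM in WT or KO as detection, 964 of the 1140 and 827 of the 1105 were detected in both, and 135 and 183 in NPCs alone. A group with 3 counts or fewer in every library occurred for 100 and 172 of them. The split depended on the scaling. With library size alone, 835 genes were called higher and 1571 lower, 34.7% higher against 50.8% with TMM, and the median interaction of all genes moved from -0.03 to -0.24. With DESeq2's size factors the numbers were 1141 and 1105. Without KO NPC library S1 there were 594 genes lower, and without S2 there were 655.

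**Figure D1:**
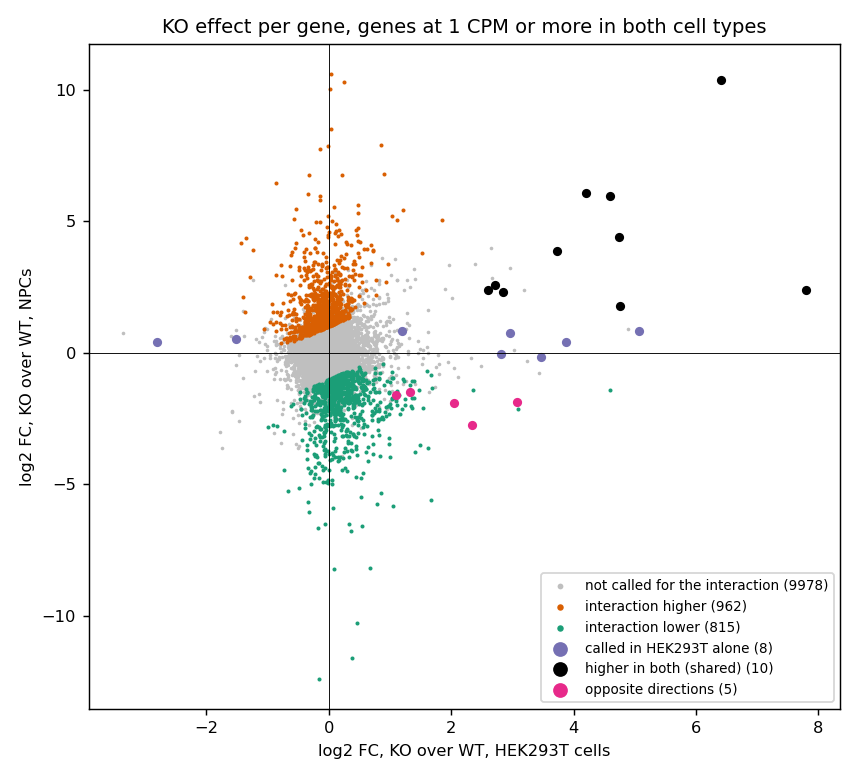
KO effect (log2 FC, KO over WT) in HEK293T cells on the horizontal axis against that in NPCs on the vertical axis, for the 11778 genes outside the zinc finger symbols with at least 1 CPM in both cell types. Genes called in HEK293T cells form classes of their own. The 962 genes called higher and 815 called lower for the interaction outside those classes spread along the vertical axis near 0 in HEK293T cells. With those classes included, 964 and 827 were called for the interaction. The 10 shared and 5 opposite genes lie to the right.

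Across those 11778 genes, the log2 FC in HEK293T cells and in NPCs had a Pearson r of 0.006, given as a description, since genes are not independent replicates. The points share the counting method and the annotation. For 529 zinc finger genes it was 0.253. Of 670 genes higher in KO HEK293T cells at an unadjusted p below 0.05, 162 were higher and 165 lower at that level in NPCs, and of 615 lower, 135 were higher and 87 lower.

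The genes with the largest positive interactions, among protein-coding genes detected in both cell types with KO NPC libraries entirely on one side, included TBX18, CTSF, NRG4, PTGER2, CYP4F22, DES, TGM2, GALNT3 and PAX3. None of them was called in HEK293T cells. PAX3, a paired-box factor of neural crest and muscle precursors (chromosome 2, 223064606 to 223163717), was at 11.2, 10.3 and 10.6 CPM in WT and 14.9, 12.6 and 9.83 CPM in KO HEK293T cells. In NPCs it was at 0.143 and 0.769 CPM in WT and 43.9 and 52.6 CPM in KO, and its interaction was 6.52 on the log2 scale (standard error 0.52, adjusted p = 1.36e-05 by edgeR). Both KO NPC libraries were above both WT NPC libraries, and the HEK293T groups overlap.

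TBX18, a T-box factor of mesenchyme (chromosome 6, 85397069 to 85474316), had 0 counts in both WT NPC libraries and 183 and 131 in KO, at least 51.0-fold higher, while it was at 15.4 to 19.3 CPM in WT and 16.4 to 21.1 CPM in KO HEK293T cells. CTSF, a lysosomal cysteine protease gene, had 0 counts in both WT NPC libraries and 129 and 125 in KO, at least 41.0-fold higher, and 9.56 to 12.7 CPM in WT HEK293T cells. NRG4, a ligand of the ERBB4 receptor, was at least 12.1-fold higher in KO NPCs. PTGER2, a prostaglandin E2 receptor, was at least 7.14-fold higher, the fatty acid hydroxylase gene CYP4F22 at least 7.58-fold and GALNT3, which starts O-linked glycans, at least 7.77-fold. DES, the intermediate filament of muscle, rose from 1.57 and 2.46 CPM to 187 and 162 CPM in NPCs, and was at 2.26, 1.66 and 1.18 CPM in WT and 0.174, 1.25 and 1.27 CPM in KO HEK293T cells. Its lowest HEK293T value was in library S18. TGM2, a crosslinking transglutaminase, rose from 2.95 and 0.975 CPM to 242 and 191 CPM in NPCs, with an interaction of 7.10 (standard error 0.64, adjusted p = 3.22e-05). The call on GALNT3 was lost without library S2, S3 or S5.

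Among protein-coding genes detected in both cell types and separated in NPCs, the largest negative interactions were those of SOX21, RND1, SCUBE1, DOC2A, WNT7B, LHX9, CXCR4, CCKBR, LHX2 and TJP3. CXCR4, the chemokine receptor of migrating progenitors (chromosome 2, 136871919 to 136876747), was at 13.0, 12.3 and 13.9 CPM in WT and 18.5, 17.3 and 21.2 CPM in KO HEK293T cells. In NPCs it was at 39.1 and 34.4 CPM in WT and 0.498 and 0.276 CPM in KO, with an interaction of -7.11 (standard error 0.35, adjusted p = 7.19e-07). The KO libraries were above WT in HEK293T cells, where the gene was not called (adjusted p = 0.38), and below WT in NPCs. SCUBE1, a secreted and membrane-bound glycoprotein gene (chromosome 22, 43593286 to 43739378), was at 144 and 242 CPM in WT and 0.847 and 0.505 CPM in KO NPCs, against 0.575 to 0.828 CPM in WT and 1.04 to 1.39 CPM in KO HEK293T cells. LHX2, a LIM homeobox factor of forebrain and eye (chromosome 9, 126763949 to 126795580), was at 19.4 and 29.1 CPM in WT and 0.399 and 0.138 CPM in KO NPCs, and its interaction was -6.82 (standard error 0.73, adjusted p = 0.000116). In HEK293T cells the groups overlap for LHX2, at 1.66 to 2.62 CPM in WT and 1.5 to 4.21 CPM in KO.

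SOX21, a SOX factor of neural progenitors, had 74 and 950 counts in the WT NPC libraries and none in KO NPCs, at least 182-fold lower, and 36 to 117 counts in all 6 HEK293T libraries. The WT NPC libraries differed widely for this gene, and voom did not call it. RND1 was at least 42-fold lower in KO NPCs, and DOC2A, a calcium sensor of synaptic vesicles, at least 10.1-fold lower. LHX9, another LIM homeobox factor, was at 5.42 and 0.821 CPM in WT NPCs. Its mean was at least 21.7-fold lower in KO, and its call was lost without S1. TJP3, a tight junction gene, was at 2.52 and 0.513 CPM in WT NPCs. Its mean was at least 10.6-fold lower in KO, and its call was lost without S2 or S3. WNT7B, a WNT ligand of the forebrain, was at 16.9 and 61.4 CPM in WT and 0.897 and 0.735 CPM in KO NPCs, and its interaction was -7.25 (standard error 1.13, adjusted p = 0.00128). In HEK293T cells WNT7B was at 0.406 to 0.863 CPM in WT and 0.611 to 4.43 CPM in KO, the highest in library S18. CCKBR, a cholecystokinin receptor, was at 3.81 and 15.5 CPM in WT and 0.0996 and 0.230 CPM in KO NPCs.

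**Figure D2:**
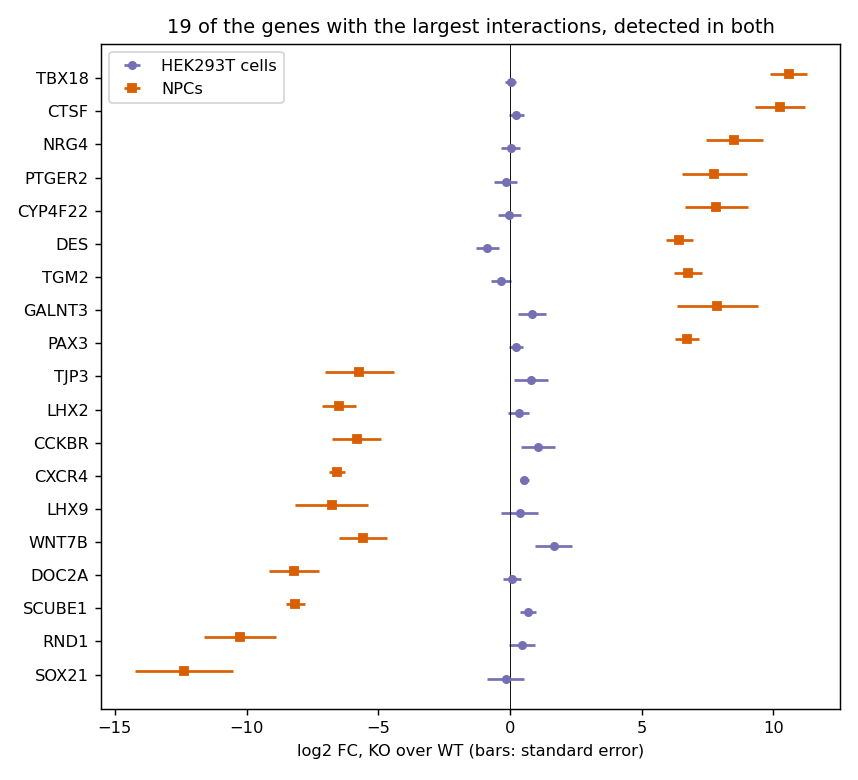
Log2 FC (KO over WT, horizontal axis) of 19 protein-coding genes, those with the largest interactions among genes detected in both cell types and separated in NPCs, in HEK293T cells (circles) and NPCs (squares), with standard errors as bars. The HEK293T values lie between -0.86 and 1.67, and the NPC values of 11 genes with a group at or under the floor are fitted values that depend on the prior count and are no bounds.

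Genes of neural progenitors and neurons fell in KO NPCs without a call in HEK293T cells. Detected in both cell types were 7 of the 16 progenitor genes and 2 of the 14 neuron genes. For a gene not detected in HEK293T cells, the lack of a call there says little. Of all genes tested, 0.556% were called higher and 0.0156% lower in HEK293T cells, so a short list can be without a call there. In NPCs the shares were 8.76% and 8.66%, and for the interaction 6.01% and 6.22%. Of 16 neural progenitor genes, 0 were called in HEK293T cells, 11 were lower and 0 higher in KO NPCs, and the interaction was lower for 8. Their median interaction was -3.30, against -0.03 for all genes tested, and -2.84 after a replacement at the floor. In it, a KO effect with 1 group at the floor was set to its bound, and to 0 with both groups there. The difference of such values is no bound on the interaction. At an unadjusted p below 0.05, 1 of the 16 differed in HEK293T cells and 11 for the interaction. SIX3, a homeobox factor of the eye field and forebrain, had 490 and 487 counts in WT and 0 in both KO NPC libraries, at least 168-fold lower, and 1 to 13 counts in HEK293T libraries. SOX3, a paralog of SOX2, was at 21.8 and 34.6 CPM in WT and 1.64 and 2.30 CPM in KO NPCs. In HEK293T cells SOX3 was at 0.0690 to 0.133 CPM in WT and 0.245 to 0.608 CPM in KO, so its groups lie apart in opposite directions, though the gene was called in NPCs (adjusted p = 3.51e-05) and not in HEK293T cells (adjusted p = 0.155). The interaction of SOX3 was -5.88 (standard error 0.63, adjusted p = 0.00011). SP8, a factor of the forebrain and limb, was at least 14.1-fold lower in KO NPCs, and its interaction call was lost without S1 or S2.

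SOX2 (chromosome 3) had an interaction of -3.35 and was at 9.51 CPM in WT and 7.43 CPM in KO HEK293T cells, as means. MSI1, an RNA-binding protein of stem cells, had an interaction of -2.43, and PAX6 of -1.24, a call lost without S1. FABP7 and the factor OTX2 fell in KO NPCs but had 0 counts in every HEK293T library, so their interaction cannot be measured. NES and ZIC1, a factor of the dorsal neural tube, were not called in either cell type.

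Of 14 neuron genes, 8 were lower and 1, ELAVL4, higher in KO NPCs, 0 were called in HEK293T cells, and the interaction was lower for 3. The median interaction was -1.68, and -1.75 after the replacement at the floor. The summed level of the list was 1569 to 1735 CPM in WT and 280 to 362 CPM in KO NPCs. MAP2, of the neuronal cytoskeleton, was at 997 and 1091 CPM in WT and 167 and 131 CPM in KO NPCs. In HEK293T cells MAP2 was at 0.135 to 0.414 CPM in WT and at 2.08, 0.214 and 0.223 CPM in KO, the high value in library S18, and its interaction was -4.18 (standard error 0.90, adjusted p = 0.00877). SYT1, the calcium sensor of synaptic release, fell from 41.4 and 37.2 CPM to 17.6 and 20.4 CPM in NPCs, against 5.41 to 7.59 CPM in WT and 8.31 to 10.7 CPM in KO HEK293T cells. The SYT1 groups lie apart in both cell types, in opposite directions, with a call in NPCs alone. NEUROG2, a proneural factor, had 3 and 34 counts in the WT NPC libraries, the first of them at the floor. Its mean was at least 6.57-fold lower in KO NPCs, which rests on the library with 34 counts. The interaction call of NEUROG2 was lost under 9 of 20 alternatives, voom and the removal of S1, S2, S5, S15, S17, S18 or S20 included. Of 5 pluripotency genes, LIN28A and DNMT3B had lower interactions, the latter lost under 6 of 21 alternatives.

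Among genes called for a lower interaction and not detected in HEK293T cells, the 5 with the highest levels were WNT8B, MAP2, COL2A1, BAALC and SYT11. WNT8B, a WNT ligand of the developing forebrain, was at 374 and 377 CPM in WT and 0.349 and 0.0919 CPM in KO NPCs. COL2A1, a collagen of cartilage and early neuroepithelium, fell from 447 and 235 CPM to 59.9 and 33.1 CPM. BAALC fell from 238 and 141 CPM to 15.6 and 14.1 CPM, and SYT11 from 128 and 206 CPM to 64.2 and 54.3 CPM. For none of these do the NPC groups overlap, which holds for 1095 of the 1105 genes called lower. The interaction call was lost for SYT11 under 9 of 20 alternatives, voom and the removal of S1, S2, S5, S15, S17 or S20 included, and for COL2A1 with voom, with or without group weights, and without S19.

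Genes of mesenchyme and extracellular matrix rose in KO NPCs without a call in HEK293T cells. Detected in both cell types were 8 of the 18 mesenchyme genes and 19 of the 29 matrix genes. Over all genes tested, 8.76% were called higher in KO NPCs, 6.01% higher for the interaction and 0.556% higher in KO HEK293T cells. Of 18 mesenchyme genes, 12 were higher and 0 lower in KO NPCs, 0 were called in HEK293T cells, and the interaction was higher for 9, with a median of 2.19. Their summed level was 1821 to 2803 CPM in WT and 7166 to 8777 CPM in KO NPCs, and 220 to 478 CPM over the HEK293T libraries. COL1A1, the main chain of fibrillar collagen, rose from a mean of 603 CPM to 3529 CPM in NPCs and was at 22.7 and 23.0 CPM in WT and KO HEK293T cells, an interaction of 2.53. FN1, or fibronectin, rose from 437 to 1794 CPM. MEOX1, a homeobox factor of somites, was at 0.333 and 0.154 CPM in WT and 11.7 and 12.9 CPM in KO NPCs, with its interaction call lost without S17. COL6A3, a chain of collagen VI, had 1 and 35 counts in WT and 1353 and 583 in KO NPCs. TWIST1 had an interaction of 2.56 and FOXC2 of 4.22, both transcription factors of mesenchyme. COL1A2 had 0 counts in HEK293T cells, and in NPCs it was at 957 CPM in WT and 1016 CPM in KO, with no call.

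Of 29 extracellular matrix genes, 18 were higher and 0 lower in KO NPCs, 0 were called in HEK293T cells, and the interaction was higher for 12. The median interaction was 1.66, and 1.78 after the replacement at the floor. Some of the matrix genes belong to the mesenchyme list too. LOX, the lysyl oxidase that crosslinks collagen, was at 33.0 and 17.6 CPM in WT and 531 and 485 CPM in KO NPCs, against 15.9 to 29.2 CPM in WT and 10.1 to 24.0 CPM in KO HEK293T cells. The NPC groups of LOX lie apart and its HEK293T groups overlap, with an interaction of 4.55 (standard error 0.51, adjusted p = 0.000157). LAMB1, a laminin chain, rose from 98.4 to 951 CPM and was at 80.3 and 79.8 CPM in WT and KO HEK293T cells. BGN, the proteoglycan biglycan, rose from 9.94 and 7.75 CPM to 634 and 483 CPM in NPCs. COL8A1 rose from 71.3 and 91.2 CPM to 820 and 796 CPM, and COL3A1 from 89.8 and 48.1 CPM to 1034 and 646 CPM. Both are collagens, and both were at most 1.07 CPM in every HEK293T library. PTX3, a secreted pentraxin, rose from 25.5 and 63.5 CPM to 348 and 623 CPM. GREM1, a BMP antagonist, rose from 17.4 and 21.7 CPM to 395 and 413 CPM in NPCs, and it was at or under the floor in both groups of HEK293T cells, so its fitted interaction of 6.85 depends on the prior count. That call was lost without S1, S2 or S16.

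Of 12 neural crest genes, 8 were higher and 1 lower in KO NPCs, and the interaction was higher for 4 and lower for 1. The median interaction was 1.88, and 1.22 after the replacement at the floor. Over all genes tested, 8.76% were called higher and 8.66% lower in KO NPCs, and 6.01% and 6.22% for the interaction. Besides PAX3, the interaction was higher for SNAI2, SOX9 and MSX2 and lower for PAX7, whose counts were 15 and 14 in WT and 5 and 5 in KO NPCs and at most 2 in HEK293T libraries. SNAI2, a repressor of epithelial genes, rose from 24.3 and 17.7 CPM to 175 and 133 CPM in NPCs and ranged from 11.7 to 66.1 CPM in WT and from 2.74 to 30.8 CPM in KO HEK293T cells. MSX2 was at 15.5 and 3.64 CPM in WT and 53.7 and 36.3 CPM in KO NPCs. The interaction call was lost for PAX7 under 11 of 20 alternatives, DESeq2 and the removal of any library but S18 included, for SNAI2 under 6 of 21, among them the removal of S1, S3, S5 or S16, and for MSX2 without S1. Of 9 smooth muscle genes, 4 were higher in KO NPCs and the interaction was higher for 4. Of 28 ligands, antagonists and targets of BMP, TGF-beta and WNT signalling, 11 were higher and 12 lower in KO NPCs, and the interaction was higher for 7 and lower for 11. ID4, a BMP target of neural progenitors, was at 94.4 and 80.5 CPM in WT and 5.58 and 2.89 CPM in KO NPCs, against 84.4 CPM or more in every HEK293T library.

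Calls in further groups were made in KO NPCs and not in HEK293T cells. Detected in both cell types were 4 of the 12 S100 genes and 13 of the 20 HLA genes. Over all genes tested, 8.76% were called higher in KO NPCs, 6.01% higher for the interaction and 0.556% higher in KO HEK293T cells. Of 12 S100 genes, which encode small calcium-binding proteins, 9 were higher in KO NPCs and the interaction was higher for 6 and lower for 1. S100A11 rose from 30.7 and 79.9 CPM to 608 and 520 CPM in NPCs and was at 22.1 to 35.6 CPM over the HEK293T libraries, with an interaction of 3.61 (standard error 0.44, adjusted p = 0.000272). S100A16 and S100A4 had interactions of 4.18 and 2.5, and the call was lost for S100A4 under 9 of 20 alternatives, voom and the removal of S1, S3, S5, S15, S16 or S20 included, and for S100A16 under 2. S100A1 had 1 and 0 counts in WT and 20 and 22 in KO NPCs, at least 6.77-fold higher, with its interaction call lost under 5 of 20. Of 20 HLA genes, which present antigen, 7 were higher in KO NPCs and the interaction was higher for 5. HLA-E was at 32.9 and 27.2 CPM in WT and 73.5 and 75.1 CPM in KO NPCs, and its HEK293T groups overlap between 52.1 and 86.8 CPM. The class II genes HLA-DPA1, HLA-DQB1 and HLA-DRB1 had interactions of 2.0, 3.20 and 3.03, with the first call lost without S1 or S5 and the last without S1, S2 or S17, and reads of HLA paralogs may be lost by unique counting.

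Of 16 interferon response genes, 11 were higher in KO NPCs and 0 in HEK293T cells, but the interaction was called for 0, with 4 at an unadjusted p below 0.05 (edgeR). DESeq2 and voom each called 2. The difference between the cell types is therefore not shown for this list, in which 9 genes were at the floor in a group of HEK293T cells. OAS3, an antiviral synthetase, rose from a mean of 10.9 to 69.4 CPM in NPCs and had 0 counts in every HEK293T library. Among 16 imprinted genes outside the Prader-Willi region, IGF2, a fetal growth factor, rose from 3.62 and 5.90 CPM to 571 and 483 CPM in NPCs and was at 0.631 to 2.95 CPM in HEK293T cells, an interaction of 5.90 (standard error 0.51, adjusted p = 2.29e-05). PHLDA2, a growth regulator of the placenta, had an interaction of 3.40 and the cell cycle inhibitor gene CDKN1C of -1.49, a call lost under 7 of 21 alternatives. H19 had 0 counts in both WT and 4 and 6 in KO NPC libraries, at least 1.6-fold higher, and its interaction call was lost under 10 of 19, DESeq2 included.

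**Figure D3:**
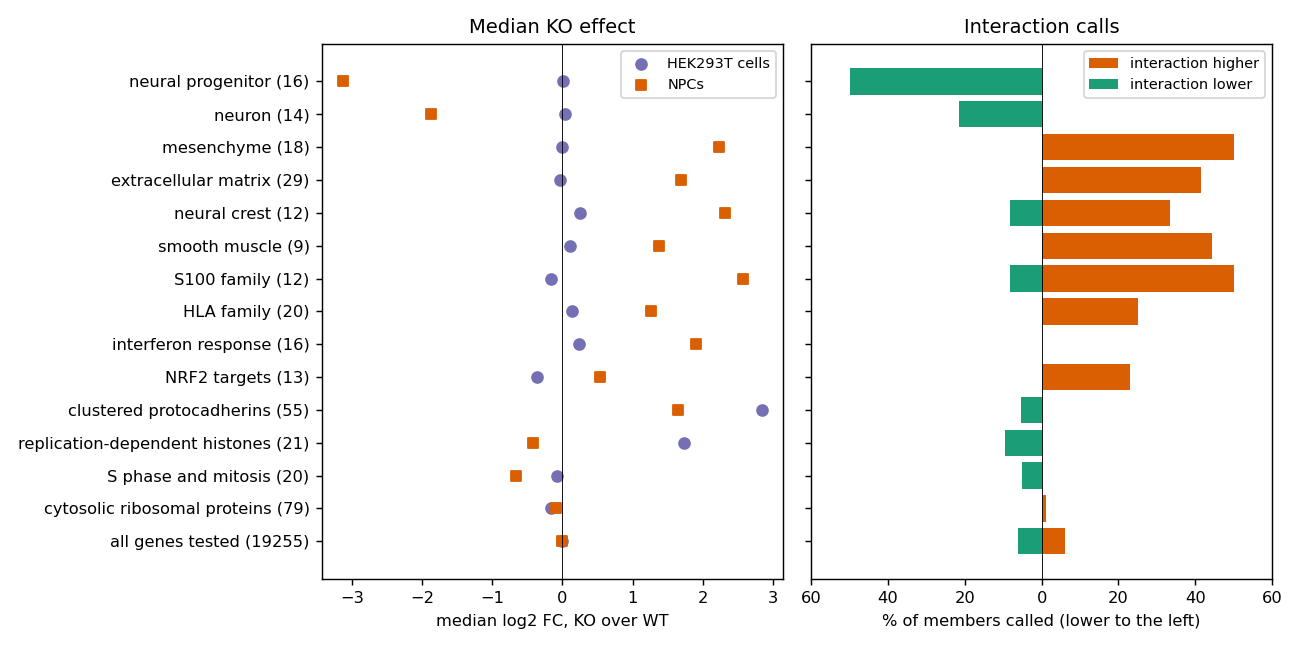
Left, median log2 FC (KO over WT) of each gene list in HEK293T cells (circles) and NPCs (squares); right, percent of list members called for the interaction, higher to the right and lower to the left, with the number of genes tested in parentheses. The neural progenitor and neuron lists lie below 0 in NPCs, and the mesenchyme, matrix and neural crest lists above it, while the HEK293T medians of these lists are between -0.03 and 0.25.

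Few genes outside the zinc finger symbols changed with an interaction that came from HEK293T cells. HMOX1, which breaks down heme and is a target of the stress factor NRF2 (chromosome 22, 35776354 to 35790207), was at 104, 91.1 and 190 CPM in WT and 41.1, 40.01 and 52.8 CPM in KO HEK293T cells. In NPCs it was at 6.76 and 4.26 CPM in WT and 8.07 and 7.99 CPM in KO. KO was below WT in HEK293T cells and above it in NPCs, with no overlap in either. The call was made in HEK293T cells (log2 FC -1.52, standard error 0.26, adjusted p = 0.0149) and for the interaction (2.06, standard error 0.43, adjusted p = 0.00721), and the HEK293T call was lost without library S19. Of 13 NRF2 targets, the interaction was higher for 3, namely HMOX1, the ferritin light chain gene FTL and the cystine transporter gene SLC7A11, with a median of 0.99. Of all genes tested, 6.01% were called higher for it. The interaction call was lost for SLC7A11 under 8 of 21 alternatives, edgeR robust and the removal of S1, S2, S5, S16, S17 or S19 included, and for HMOX1 under voom with group weights. FTL was at 490, 449 and 513 CPM in WT and 426, 301 and 327 CPM in KO HEK293T cells, and at 1596 and 1207 CPM in WT and 2571 and 2647 CPM in KO NPCs, where it did not pass the FC threshold. The call of HEK293T cells on the list was 1 gene, HMOX1, and 6 genes had an unadjusted p below 0.05. MAGED4, of the MAGE family, was at 1.99, 1.35 and 6.35 CPM in WT and 0.434 to 0.484 CPM in KO HEK293T cells. It was not called in NPCs and has a near-identical copy, MAGED4B, so its reads may be lost by unique counting. Its HEK293T call was lost under 11 of 21 alternatives, voom and the removal of S17, the 6.35 CPM library, included, and its interaction under 7.

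LINC00665, a long noncoding RNA (chromosome 19, 36750442 to 36822672), was at 5.61, 2.14 and 3.99 CPM in WT and 26.6, 26.3 and 29.6 CPM in KO HEK293T cells. In NPCs it was at 10.9 and 11.7 CPM in WT and 8.62 and 13.5 CPM in KO. The HEK293T groups lie apart and the NPC groups overlap, with an interaction of -2.84 (standard error 0.46, adjusted p = 0.00174). The gene lies 2683 bases from the zinc finger gene ZFP14. ENSG00000176593, a noncoding RNA that overlaps ZNF606, was at 0.169 to 0.498 CPM in WT and 3.39 to 5.21 CPM in KO HEK293T cells, with NPC values of 3.43 and 2.46 CPM in WT and 2.74 and 2.48 CPM in KO. ENSG00000267383, which overlaps ZNF90, was at least 4.66-fold higher in KO HEK293T cells and was not called in NPCs. C1RL, a serine protease related to complement C1r, had 3, 2 and 2 counts in WT and 8, 14 and 18 in KO HEK293T cells, at least 4.75-fold higher, against 11.2 to 13.8 CPM in WT and 7.99 to 8.12 CPM in KO NPCs. The HEK293T calls of C1RL and ENSG00000267383 were each lost under 7 of 20 alternatives. ENSG00000167383, which has no symbol in the annotation used, was at 0.166, 0.414 and 0.608 CPM in WT and 8.47, 7.55 and 1.6 CPM in KO HEK293T cells. Its interaction call was lost without S1 or S2. EXO5, a DNA exonuclease gene 12398 bases from ZFP69, was called in HEK293T cells (log2 FC 1.20, adjusted p = 0.0147) without a call on the interaction (-0.38, adjusted p = 0.467). In NPCs its KO libraries were above WT without overlap (log2 FC 0.82, adjusted p = 0.0265, edgeR), but under the FC threshold. Of the 15 genes called in HEK293T cells without a PCDH symbol that had a position, 7 (46.7%) lay within 50 kb of a zinc finger gene. Of all genes outside the zinc finger symbols, 4.54% did. The shares were 3.24% for the interaction called higher and 3.58% for lower. The 7 include ENSG00000269825, which overlaps ZNF83 and has 14 C2H2 zinc finger patterns in a reading frame.

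The effects that both cell types shared were few. Of the 30 genes higher in KO HEK293T cells, 17 were also higher in KO NPCs, which is 56.7% of the former and 1.04% of the 1638 genes higher in NPCs. The 2 comparisons share no samples. No gene outside the zinc finger symbols was lower in both (0 of 2 in HEK293T cells, edgeR, with 87 at an unadjusted p below 0.05 in both), and among zinc finger genes 9 were higher in both and 1, ZNF274, lower. Of the 17, 11 carried symbols of clustered PCDHs. The number of shared genes was 9 without S16 or S17 and 18 at most without any single library, and DESeq2, voom and separate fits per cell type kept 16, 11 and 9 of the 17.

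Promoters of 3 clustered PCDHs with different patterns are shown, from RefSeq on GRCh38.p14, each running from 250 bases before to 50 bases after the start, on the + strand of chromosome 5. PCDHB13 rose in both cell types (chr5:141213669-141213968), PCDHB2 was called in HEK293T cells alone (chr5:141094365-141094664) and PCDHGC4 moved in opposite directions (chr5:141484780-141485079). Capitals mark the word GGTGGCGCT.
PCDHB13: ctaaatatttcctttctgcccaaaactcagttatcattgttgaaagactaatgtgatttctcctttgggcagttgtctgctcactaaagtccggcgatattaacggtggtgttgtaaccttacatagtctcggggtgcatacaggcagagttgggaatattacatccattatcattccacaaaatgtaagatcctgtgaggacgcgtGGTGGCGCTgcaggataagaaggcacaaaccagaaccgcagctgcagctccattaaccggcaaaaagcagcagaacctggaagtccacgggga
PCDHB2: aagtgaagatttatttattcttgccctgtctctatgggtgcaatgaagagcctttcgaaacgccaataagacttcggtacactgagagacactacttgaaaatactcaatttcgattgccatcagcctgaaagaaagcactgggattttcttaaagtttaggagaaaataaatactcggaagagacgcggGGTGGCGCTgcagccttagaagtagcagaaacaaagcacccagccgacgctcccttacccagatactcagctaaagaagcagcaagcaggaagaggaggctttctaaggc
PCDHGC4: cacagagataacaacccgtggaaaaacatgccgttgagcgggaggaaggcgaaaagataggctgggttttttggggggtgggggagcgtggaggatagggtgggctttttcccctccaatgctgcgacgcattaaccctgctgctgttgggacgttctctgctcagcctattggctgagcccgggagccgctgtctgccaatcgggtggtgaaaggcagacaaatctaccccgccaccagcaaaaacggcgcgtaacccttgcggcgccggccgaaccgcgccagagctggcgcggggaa
The word was picked because it occurred in more promoters of the shared PCDHs than any other word of 9 letters, so its frequency there is a description. Searched on both strands, it was in 6 of the 9 shared PCDHs that have a promoter in the table, in 1 of 3 called in HEK293T cells and not shared, in 2 of 11 called higher in NPCs alone and in 3 of 21 others. By cluster it was in 12 of 12 beta, 0 of 13 alpha and 0 of 19 gamma promoters. Of all 27305 RefSeq promoters of this length, 0.524% hold it.

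Of 55 clustered PCDHs, 14 were higher and 0 lower in KO HEK293T cells, 24 were higher and 1 lower in KO NPCs, and 11 were higher in both. At an unadjusted p below 0.05, 32 differed in HEK293T cells. The interaction was higher for 0 and lower for 3, with 14 at an unadjusted p below 0.05 (edgeR), and DESeq2 called 8 lower. The 3 are 5.45% of the list, near the 6.22% of all genes called lower, so they are a result about single genes. The median log2 FC of the 55 was 2.85 in HEK293T cells and 1.65 in NPCs, and 1.21 and 1.44 after the replacement at the floor. It concerned 38 genes in HEK293T cells and 10 in NPCs. The median interaction was -0.75, and 0.14 after the replacement, so its sign depends on the genes at the floor. PCDHs were low in HEK293T cells, and the genes that share the last exons of the PCDHA or of the PCDHG cluster can lose reads to unique counting.

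PCDHB12 (chromosome 5, 140588269 to 140592143 on hg19) was at 0.133, 0.0345 and 0.270 CPM in WT and 1.30, 6.11 and 4.58 CPM in KO HEK293T cells. In NPCs it was at 0.761 and 0.821 CPM in WT and 19.9 and 14.1 CPM in KO. KO lies above WT without overlap in both, and library S18 is the lowest KO value. The log2 FC was 4.74 in HEK293T cells (standard error 0.64, adjusted p = 0.00261) and 4.42 in NPCs (standard error 0.68, adjusted p = 0.00059), and the interaction was -0.32 (standard error 0.85, adjusted p = 0.874), so a difference was not detected at this precision. PCDHB13, whose promoter is shown, was at 0.266, 0.103 and 0.101 CPM in WT and 1.09, 2.69 and 2.64 CPM in KO HEK293T cells, and rose from 1.05 and 1.39 CPM to 17.5 and 18.1 CPM in NPCs. Its log2 FC was 3.73 in HEK293T cells and 3.87 in NPCs, an interaction of 0.14 (standard error 0.93). PCDHB14 had log2 FC values of 2.60 and 2.38, and PCDHB15 of 2.85 and 2.29, where the HEK293T call was lost under 10 of 21 alternatives for PCDHB15, among them voom and the removal of S16, S17, S19, S20, S1 or S2, and under 4 for PCDHB14.

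PCDHA1, the first exon of the alpha cluster, had 0, 0 and 1 counts in WT and 16, 55 and 46 in KO HEK293T cells, and 0 and 0 in WT and 128 and 145 in KO NPCs. These are at least 13.4-fold and at least 44-fold higher. PCDHB8 was at least 13.0-fold, PCDHB10 at least 7.49-fold, PCDHB11 at least 9.12-fold and the pseudogene PCDHB18P at least 17.1-fold higher in KO HEK293T cells, with log2 FC values of 6.07, 2.38, 3.72 and 5.95 in NPCs. PCDHGA1 rose in both (log2 FC 4.04 and 2.74), and PCDHGB4 was at least 3.95-fold higher in HEK293T cells and rose from 17.2 and 18.8 CPM to 44.4 and 36.9 CPM in NPCs. The HEK293T calls of PCDHB11 and PCDHGB4 were each lost under 12 of 20 alternatives, voom and the removal of any library but S18 included, and that of PCDHGA1 under 9. The NPC call was lost for PCDHGB4 under 5 of 20, the removal of any NPC library included, and for PCDHGA1 under 4, the removal of S1, S3 or S5 included. Without S3, the NPC calls of PCDHB10 and PCDHB11 were lost too. The HEK293T call of PCDHB8 was lost under 4 of 21 alternatives, among them voom and the removal of S16 or S17. That of PCDHB10 was lost without S15, S16 or S17. Without S16, 4 PCDHs were shared.

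The remaining 6 shared genes carry no PCDH symbol. Of these, ENSG00000272070 lies between the PCDH clusters, and ENSG00000196963 has neither a symbol nor a position in the annotation used. ENSG00000267260, a noncoding RNA 275 bases from ZNF850 (chromosome 19, 37264002 to 37267980), was at 3.02, 2.45 and 2.47 CPM in WT and 20.5, 13.1 and 18.6 CPM in KO HEK293T cells. In NPCs it rose from 2.28 and 1.49 CPM to 6.58 and 15.8 CPM. KO is above WT in both, with log2 FC values of 2.72 and 2.56 and an interaction of -0.15 (standard error 0.52). ENSG00000272070, a noncoding RNA between the PCDH clusters (chromosome 5, 140705777 to 140708930), was at least 7.15-fold higher in HEK293T cells and had a log2 FC of 2.0 in NPCs. ENSG00000215146, a transcribed pseudogene on chromosome 10, was at least 91.6-fold higher in HEK293T cells and had 0 counts in WT and 3 and 9 in KO NPC libraries. The latter is at least 1.90-fold higher, under the FC threshold of 2. Its NPC call therefore rests on the fitted FC, which depends on the prior count. WDR87BP, a pseudogene 11750 bases from ZNF573, was at least 4.82-fold higher in HEK293T cells and at least 2.25-fold higher in NPCs. The HEK293T call of WDR87BP (adjusted p = 0.0488, edgeR) was lost under 10 of 20 alternatives, DESeq2 and the removal of any HEK293T library included, and its NPC call under 5. The NPC call was lost under 6 of 20 for ENSG00000215146 and 5 for ENSG00000272070, whose HEK293T call was lost under 4. Of the 5 shared genes without a PCDH symbol that had a position, 3 lay within 50 kb of a zinc finger gene, ENSG00000269825 included.

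A pair of shared genes rose more in HEK293T cells. ENSG00000269825, which overlaps ZNF83 and has 14 C2H2 patterns in a reading frame of its transcripts, had 0 counts in WT and 27, 47 and 18 in KO HEK293T cells, at least 10.8-fold higher, and a log2 FC of 2.40 in NPCs. Its NPC call was lost without S1 or S5, and its interaction call at an adjusted p below 0.01. ENSG00000196963, with no symbol, was at 0.133, 0.0690 and 0 CPM in WT and 1.48, 2.57 and 1.79 CPM in KO HEK293T cells, and rose from 19.6 and 18.4 CPM to 68.2 and 61.9 CPM in NPCs. Its interaction was -2.98 (standard error 0.60, adjusted p = 0.00598). Identifiers with no symbol number 542 of the 19665 shared. Zinc finger genes among them were not taken out, and clustered PCDHs among them were not counted as such.

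Opposite effects were called for 5 genes, each higher in KO HEK293T cells and lower in KO NPCs, and for 0 genes the other way. CRMP1, which mediates semaphorin signals in growing axons (chromosome 4, 5749811 to 5894813), was at 18.9, 11.1 and 13.5 CPM in WT and 24.7, 31.5 and 37 CPM in KO HEK293T cells. In NPCs it fell from 229 and 250 CPM to 80.1 and 79.1 CPM. The groups lie apart in both, in opposite directions, and the interaction was -2.69 (standard error 0.31, adjusted p = 0.000165). PCDHGC4, a C-type protocadherin (chromosome 5, 140864564 to 140892542), was at 0.763, 0.655 and 0.406 CPM in WT and 1.87, 2.87 and 4.50 CPM in KO HEK293T cells. In NPCs it fell from 9.80 and 7.44 CPM to 1.44 and 1.15 CPM, and its interaction was -5.06 (standard error 0.61, adjusted p = 0.000232). It was the one clustered PCDH called lower in either cell type.

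LRRC27, a leucine-rich repeat gene, rose from 1.43 to 2.10 CPM in WT to 3.65 to 5.47 CPM in KO HEK293T cells and fell from 20.7 and 19.6 CPM to 7.57 and 6.89 CPM in NPCs. ENSG00000261716, with no symbol, was at 0.946 to 1.48 CPM in WT and 4.13 to 5.99 CPM in KO HEK293T cells, and fell from 1.76 and 1.64 CPM to 0.448 and 0.459 CPM in NPCs. ENSG00000266680, a noncoding RNA, had an interaction of -4.95 (standard error 0.83, adjusted p = 0.00202). The interactions of these 5 genes were called under each of the 21 alternatives run, but the calls within a cell type were less firm. In HEK293T cells the call was lost under 10 of 21 alternatives for LRRC27, 5 for CRMP1, 5 for ENSG00000266680, 3 for PCDHGC4 and 1 for ENSG00000261716. In NPCs it was lost under 9 for ENSG00000266680, DESeq2 and voom included, and for ENSG00000261716 without S1 or S2. Without library S17, 0 genes were called opposite.

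Besides PCDHGC4, the interaction was lower for PCDHB2 and PCDHGC3. PCDHB2 was at 0.266, 0 and 0.0338 CPM in WT and 3.13, 3.48 and 4.06 CPM in KO HEK293T cells, and at 28.4 and 29.3 CPM in WT and 52.7 and 51.0 CPM in KO NPCs. KO was above WT without overlap in both, with a log2 FC of 5.07 (standard error 0.48) in HEK293T cells and 0.85 (standard error 0.35, adjusted p = 0.0974) in NPCs, and the interaction was -4.22 (standard error 0.63, adjusted p = 0.000957). PCDHGC3, another C-type gene, had log2 FC values of 2.96 and 0.75 and an interaction of -2.21 (standard error 0.58, adjusted p = 0.0232), a call lost under 7 of 21 alternatives, namely voom, voom with group weights, an adjusted p below 0.01 and the removal of S2, S3, S16 or S17.

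**Figure D4:**
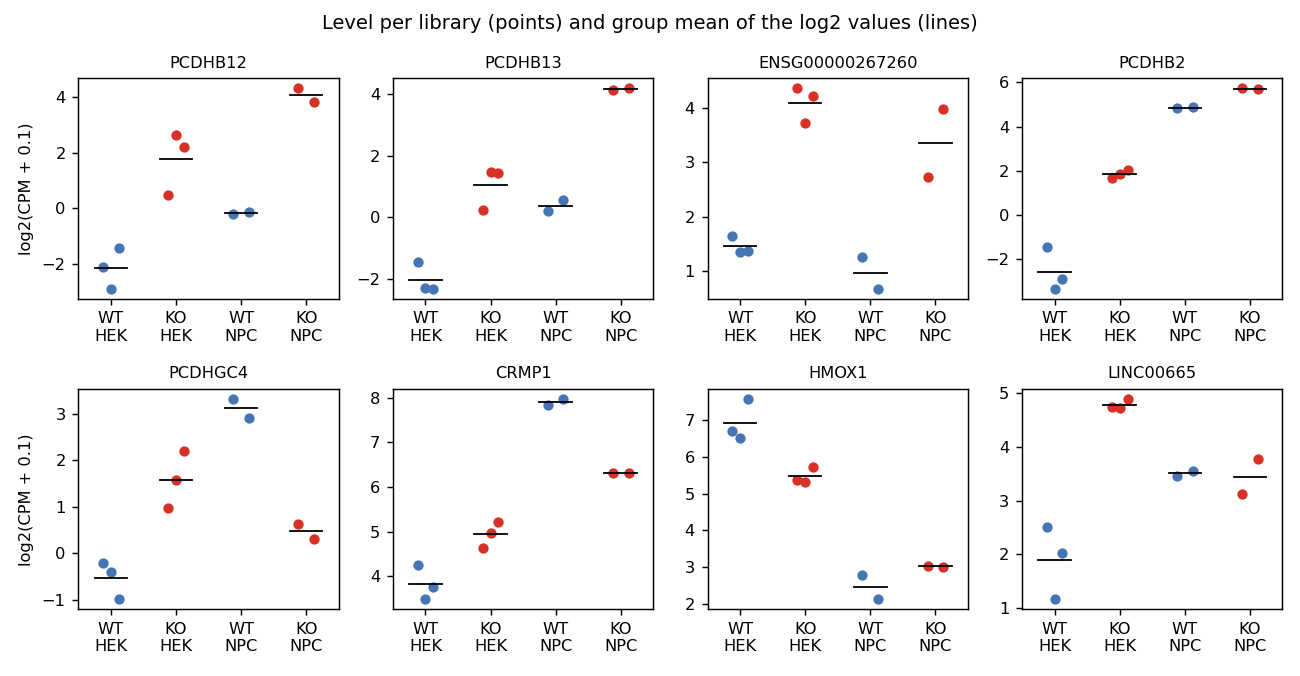
Level of 8 genes in each library as log2(CPM + 0.1), with a point per library and a line at the group mean of the log2 values; WT libraries are blue and KO libraries red. PCDHB12, PCDHB13 and ENSG00000267260 are higher in KO in both cell types, PCDHB2 was called in HEK293T cells alone, PCDHGC4 and CRMP1 move in opposite directions, and HMOX1 and LINC00665 differ by KO in HEK293T cells.

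Histone genes of the HIST clusters, which supply histones for DNA replication, showed no call in HEK293T cells (0 of 21, edgeR, with 12 at an unadjusted p below 0.05 and 20 above 0). The interaction was lower for 2 of them, H2AC11 and H4C11, with 11 at an unadjusted p below 0.05 and a median of -2.30, and 0 of 21 above 0. H2AC11 was at 1.66, 1.17 and 2.43 CPM in WT and 19.8, 4.80 and 2.57 CPM in KO HEK293T cells, where library S18 is far above the others, and at 1.95 and 4.36 CPM in WT and 1.34 and 1.01 CPM in KO NPCs. The number called was 9 without KO library S20 and 0 without S1, S2, S5 or S16. The list was narrowed after values had been seen, and before that the number was 4 of 23. Most histone mRNAs lack a poly(A) tail and poly(A) selection keeps few of them. Of 20 genes of S phase and mitosis, 2 were called lower in KO NPCs, with 18 at an unadjusted p below 0.05, 0 of 20 above 0 and a median log2 FC of -0.66. The interaction was lower for 1 of the 20, near the 6.22% of all genes, with 13 at an unadjusted p below 0.05 and a median of -0.55. That gene was TOP2A, which untangles DNA, at 908 and 809 CPM in WT and 404 and 425 CPM in KO NPCs, a call lost without S3 or S17. Of 79 cytosolic ribosomal protein genes, the interaction was higher for 1, a smaller share than the 6.01% of all genes. That gene was RPL22L1, whose KO HEK293T values were 27.1, 106 and 213 CPM, lowest in S18, against 267 to 315 CPM in WT, and its call was lost under 6 of 21 alternatives, the removal of any NPC library included.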

How the data were processed

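RNA-seq (TruSeq stranded mRNA) was analysed from a table of raw counts per gene for each cell type. Per the labels and the study's methods, the authors aligned reads to hg19 with HISAT2 and obtained the deposited counts with featureCounts from uniquely aligned reads. Tool versions and the annotation release are not given in the sources used here. Unique counting lowers values of genes with near-identical copies.

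The tables list 22750 genes (HEK293T) and 20965 (NPC), and the 19665 shared identifiers were joined. Genes with a total of at least 10 counts were fitted across all 10 libraries with edgeR 4.0.16 in R 4.3.3, with 1 term per group and contrasts for each KO effect and their difference. The study used voom, run here as an alternative with limma 3.58.1, besides DESeq2 1.42.0, other scalings, filters and thresholds, and leaving out each library. On simulated data with 200 of 19116 genes changed in NPCs, the interaction test recovered 43% at 2.5-fold and 75% at 4-fold, with 2 false calls among 120. The changed genes were drawn from those above a minimum count in both cell types, and were fewer than the genes called here. These rates therefore do not describe genes with few counts. No libraries were duplicates (chi-square per degree of freedom 10.5 to 82.8). TMM factors were 0.946 to 1.08.

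Zinc finger genes were taken out by symbol. The members and lists were chosen with earlier results of these data known. Named genes were the 10 largest interactions in each direction among called protein-coding genes detected in both cell types and separated in NPCs, the shared genes, the opposite genes, up to 10 called in HEK293T cells alone, the 5 most abundant per direction among called genes not detected in HEK293T cells, and up to 4 members of each list. Further list members (such as SOX2, FABP7, COL1A1, LAMB1 and TWIST1) and EXO5 were chosen after their values were seen, and the alternatives were not run on these genes singly. Names and hg19 coordinates come from a GENCODE annotation that may differ from the authors'. HIST genes were matched by their current symbols. The design text gives the replicates as independent clones, but the labels do not say which clone each library came from, so p-values measure the spread between these libraries. Sequences are from RefSeq. Some items are not reported here.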

Additional observations from a re-analysis of the deposited data

Results flagged for a closer look

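The KO effect differed between the cell types, by the test of the interaction in edgeR's quasi-likelihood fit, for 1140 genes higher in NPCs and 1105 lower. Among genes named in the text, higher interactions, on the log2 scale, included TGM2 7.10, PAX3 6.52, DES 7.30, MAGED4 3.21, HMOX1 2.06, COL8A1 2.78, PTX3 3.87, BGN 6.70, COL3A1 4.81, HLA-DPA1 2.0, HLA-DQB1 3.20, HLA-DRB1 3.03, HLA-E 1.46, FTL 1.36, SLC7A11 1.80, S100A11 3.61, S100A4 2.5, LOX 4.55, MEOX1 4.50, COL6A3 7.47, MSX2 2.48, SNAI2 4.15, IGF2 5.90 and PHLDA2 3.40. Lower interactions included CCKBR -6.87, CXCR4 -7.11, SCUBE1 -8.84, WNT7B -7.25, LHX2 -6.82, ENSG00000196963 -2.98, CRMP1 -2.69, ENSG00000261716 -3.94, ENSG00000266680 -4.95, LRRC27 -2.81, PCDHGC4 -5.06, ENSG00000167383 -3.46, ENSG00000176593 -3.65, LINC00665 -2.84, PCDHB2 -4.22, PCDHGC3 -2.21, BAALC -4.38, SYT11 -1.90, WNT8B -10.63, MAP2 -4.18, SOX3 -5.88, SYT1 -1.61, CDKN1C -1.49 and H2AC11 -3.78.

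The genes that follow had 3 counts or fewer in every library of a group, so the fitted interaction depends on the prior count and is no bound. Higher values were fitted for CTSF 10.02, GALNT3 7.03, NRG4 8.48, PTGER2 7.90, CYP4F22 7.86, TBX18 10.55, GREM1 6.85, S100A1 5.55, S100A16 4.18 and H19 6.04. Lower values were fitted for DOC2A -8.29, LHX9 -7.14, RND1 -10.72, SOX21 -12.22, TJP3 -6.52, ENSG00000269825 -5.41, C1RL -3.18, ENSG00000267383 -4.65, COL2A1 -5.53, PAX7 -5.29, SIX3 -11.13, SP8 -5.00, NEUROG2 -7.50 and H4C11 -5.21.

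Genes listed for NPCs but not for HEK293T cells took no part in the interaction. Tested in the NPC libraries alone, 152 of these outside the zinc finger symbols were called, 94 of them higher in KO. No group had 4 or more libraries, so single libraries were not tested as outliers.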

How the results depend on the processing

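No paired analysis was possible because the groups compared share no replicate numbers. The counts of calls moved by over 1.5 times under these settings. DESeq2 gave 64 genes higher and 13 lower in HEK293T cells and 8 opposite. Voom, the test of the study's methods, gave 1 lower in HEK293T cells, 3 opposite and 6 shared PCDHs, and with group variance weights 1 lower in HEK293T cells and 7 shared PCDHs. With at least 1 CPM in both cell types there were 1032 higher and 1046 lower in NPCs, 10 shared genes and 7 shared PCDHs. At an adjusted p below 0.01 the interaction was higher for 669 and lower for 498 genes, with 16 higher and 0 lower in HEK293T cells, 969 lower in NPCs, 9 shared, 1 opposite and 6 shared PCDHs. Without an FC threshold there were 10 lower in HEK293T cells, 2569 higher in NPCs and 8 opposite. Separate fits gave 19 higher and 1 lower in HEK293T cells, 9 shared, 2 opposite and 6 shared PCDHs. Among protein-coding genes there were 18 higher in HEK293T cells, 11 shared and 3 opposite. The causes were not tested, beyond the fewer genes or stricter thresholds of a setting.

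Leaving out each library gave 799 to 1240 genes with a higher interaction, 594 to 1168 lower, 14 to 38 higher and 1 to 23 lower in HEK293T cells (23 without S20), 1182 to 1733 higher and 874 to 1777 lower in NPCs (874 without S1), 9 to 18 shared, 0 to 7 opposite and 4 to 12 shared PCDHs. An arm left with 1 library was assumed to vary like the other groups. The NPC effect of LINC00665, -0.03 with all libraries, ranged from -0.39 without S2 to 0.26 without S1 and was 0.02 without S5. That of ENSG00000176593, -0.18 with all libraries, ranged from -0.40 without S5 to 0.084 without S3. None of these was called. DESeq2 and voom kept 1126 and 1060 of the 1140 genes, and 1066 and 943 of the 1105. Taking out genes with C2H2 patterns in reading frames of GENCODE transcripts, chosen after seeing the data, left 1128 and 1090. The planned version of this on RefSeq proteins was not run. HEK293T effects in PCDHs rest on few counts, which limits how well a difference between cell types can be seen.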

Other observations

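Of 11 radial glia genes, 5 were lower and 1 higher in KO NPCs, and the interaction was lower for 2. Of 28 nonclustered protocadherins and cadherins, which mediate adhesion between cells, 5 were higher and 9 lower in KO NPCs, and the interaction was higher for 1 and lower for 4. Of 20 genes of the KRAB, TRIM28 and H3K9 methylation machinery, through which ZNF274 is known to act, 0 were called in HEK293T cells (edgeR, 1 at an unadjusted p below 0.05), and the interaction was higher for 1 and lower for 1. Of 15 cholesterol synthesis genes, it was higher for 1 and lower for 1. Over all genes, 8.76% were called higher and 8.66% lower in KO NPCs, and 6.01% and 6.22% for the interaction. The single members called in the KRAB machinery and cholesterol lists are near those shares. Of the 28 nonclustered protocadherins and cadherins, the 1 with a higher interaction is a smaller share than 6.01%. The 4 with a lower interaction are a larger share than 6.22%.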
